A study of Mus musculus with 45 samples.

Results

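The mRNA levels of 10 genes that govern or carry out autophagy were followed through 45 RNA-seq libraries of mouse mammary tumour lines. The genes were picked by symbol from the 28454 genes of the count table, and all 10 were found. They comprise the transcription factor genes Tfe3, Tfeb and Mitf, the cargo receptor gene Sqstm1, and the ATG8 family genes Map1lc3b and Gabarapl1. The rest are the early-acting genes Ulk1 and Wipi1, Flcn, whose product acts on the Rag GTPases, and Rragd, the gene of a Rag GTPase. After 6 h without cysteine and cystine, Sqstm1 was 3.31-fold to 12.2-fold higher in the 4 lines that were deprived. Mitf, Tfe3, Map1lc3b and, by a small margin in MYAZ16.1e and Myc310, Flcn were also higher in each of them, Ulk1 was lower, and Tfeb was lower in Myc310, LM1 and LM1-LM but not in MYAZ16.1e.

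TFE3, TFEB and MITF belong to the MiT/TFE family of basic helix-loop-helix leucine zipper factors, which bind short E-box sequences near lysosomal and autophagy genes. In fed cells the kinase mTORC1, held on the lysosome by the Rag GTPases, phosphorylates TFE3 and TFEB and keeps them out of the nucleus, and folliculin, the product of Flcn, works on the Rag GTPases in that step. Autophagy itself begins with the ULK1 kinase, proceeds through WIPI proteins on the forming membrane and through lipid-bound LC3 and GABARAP proteins, and delivers cargo carried by receptors such as p62, the product of Sqstm1. Because these proteins are controlled largely by phosphorylation, location and turnover, the mRNA levels given here are not a measure of factor activity or of autophagic flux.

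The lines fell into subtypes by origin. The MYAZ subtype held MYAZ16.1e, MYAZ12.3i and MYAZ6.6g, lines grown from mammary tumours of mice that express c-MYC from the MMTV promoter, which is active in mammary epithelium. Myc310 is a single line from an MMTV-cMYC mouse that bore several tumours. The LM subtype (LM1, LM2 and LM3) was recovered from lungs after Myc310 had been injected into the mammary fat pad, and the LM-LM subtype held LM1-LM, recovered from lungs after injection of LM1, with LM2-LM and LM3-LM as its counterparts. A line labelled MYAZ12.3i-NDI1, whose name adds a yeast mitochondrial NADH dehydrogenase, was grown beside MYAZ12.3i. Every line was sampled in control medium, and MYAZ16.1e, Myc310, LM1 and LM1-LM were also sampled after 6 h in medium without cysteine and cystine, which makes 15 groups of 3 cultures from 11 lines. Cells had been seeded at 250000 per well and the medium was changed after 24 h. The 3 cultures of a group are called technical replicates in the study's design, so p-values measure the spread between cultures of a line. Myc310, LM1 and LM1-LM are related lines that go back to 1 mouse, and MYAZ16.1e alone stands for the MYAZ subtype under deprivation.

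Libraries held between 19517859 and 29019988 counts. Of 8 epithelial marker genes, 3 (Krt8, Krt18 and Krt19) exceeded 1 CPM (counts scaled to a common library size) in at least 1 group, whereas Epcam and the remaining markers did not. Fibroblast markers exceeded 1 CPM for 5 of 8 genes, with summed levels of 1.73 to 217 CPM in control and 2.68 to 29.2 CPM in deprived libraries. Leukocyte markers did so for 2 of 8, endothelial for 1 of 8, alveolar for 3 of 8 and melanocyte markers for 0 of 7, and in the 24 libraries of the deprivation comparisons their sums lay between 0.0465 and 16.8 CPM. After deprivation the leukocyte sum was higher without overlap in Myc310 (9.55 to 10.4 against 11.8 to 13.5 CPM) and LM1 (9.43 to 10.1 against 11.7 to 13.7 CPM), and the alveolar sum was lower without overlap in LM1 (0.813 to 1.27 against 0.322 to 0.511 CPM) and LM1-LM (0.499 to 0.746 against 0.0504 to 0.306 CPM). The fibroblast sum was lower after deprivation in LM1 (15.1 to 17.6 CPM against 10.5 to 11.4 CPM) and in LM1-LM (57.6 to 63.6 against 26.9 to 29.2 CPM) and somewhat higher in MYAZ16.1e and Myc310, although Col1a1, one of its genes, was called higher in each line. The epithelial sum was higher after deprivation in every line without overlap (1130 to 1160 against 1340 to 1390 CPM in MYAZ16.1e, and 1010 to 1060 against 1310 to 1340 CPM in LM1-LM). The part of these shifts in the results was not tested. In such bulk samples fewer cells of a kind and less RNA per cell cannot be told apart, and CPM are shares of the library, not amounts per cell.

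The starts of the members were inspected because the family is known for binding short motifs near its targets. Sequence of the 250 bases before each annotated start (RefSeq, GRCm38.p6) was found for all 10 genes, in 15 entries. The E-box CACGTG, present in 6.02% of 32851 mouse promoter entries, and the related CATGTG, present in 12.25%, were searched on both strands and matched in none of the 15 entries. The cyclic AMP response element TGACGTCA, present in 1.55%, matched in Flcn, 49 bases upstream of its start, and at 1 of 3 starts of Mitf, 153 bases upstream. The C/EBP-ATF element TGATGNAA (3.45% of entries) matched in none, and the antioxidant response element core TGACNNNGC (10.2%) matched at 2 places of another Mitf start. No matches overlapped. These are matches of letters in a short window and say nothing of binding elsewhere. The stretches free of annotated exons are shown for Sqstm1 and Tfe3, which rose in every deprived line, and for the Mitf start with the response element in capitals (strand as transcribed):
Sqstm1, chr11:50210828-50210889, minus strand: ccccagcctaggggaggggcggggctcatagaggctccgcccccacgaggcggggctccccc
Tfe3, chrX:7762411-7762559, plus strand: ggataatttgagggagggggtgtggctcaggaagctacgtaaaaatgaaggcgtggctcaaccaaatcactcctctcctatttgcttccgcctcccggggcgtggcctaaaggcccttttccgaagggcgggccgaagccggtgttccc
Mitf, chr6:97991533-97991782, plus strand, inside the gene: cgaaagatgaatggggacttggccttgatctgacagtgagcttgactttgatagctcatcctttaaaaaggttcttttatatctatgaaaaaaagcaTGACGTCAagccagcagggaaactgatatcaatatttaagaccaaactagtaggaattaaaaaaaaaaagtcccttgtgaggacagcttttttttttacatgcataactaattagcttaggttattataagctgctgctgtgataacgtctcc

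Sqstm1 (ENSMUSG00000015837, chr11:50199366-50210827, minus strand, GRCm38) encodes the receptor that links ubiquitin-tagged cargo to LC3 and that also holds KEAP1, the inhibitor of NRF2. In MYAZ16.1e its level was 282.7, 280.8 and 285.4 CPM in the control cultures and 925.6, 925.4 and 968.1 CPM in the deprived cultures. In Myc310 the same cultures gave 368.4, 356.7 and 374 CPM against 2634, 2769 and 2674 CPM. The control and deprived cultures were far apart in both lines, and the deprived Myc310 cultures all lay above the deprived MYAZ16.1e cultures. LM1 went from 358.3, 353.8 and 356.3 CPM to 4019, 4076 and 4259 CPM. LM1-LM went from 382.3, 363.4 and 369.4 CPM to 4383, 4499 and 4388 CPM. Tested with edgeR (quasi-likelihood test, p-values adjusted by the Benjamini-Hochberg method, n = 3 cultures a group), the log2 fold change was 3.61 ± 0.03 (SE; adjusted p = 4.98e-37) in LM1-LM, 3.57 ± 0.03 (7.22e-37) in LM1, 2.86 ± 0.03 (7.75e-35) in Myc310 and 1.73 ± 0.03 (1.1e-29) in MYAZ16.1e. Among 13400 genes tested Sqstm1 held rank 122 from the top by fold change in LM1-LM, rank 140 in LM1, rank 157 in Myc310 and rank 260 in MYAZ16.1e. Mrnip overlaps Sqstm1 on the opposite strand, and whether reads were counted by strand is not stated, but Mrnip held at most 161 counts in any library.

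**Figure D1:**
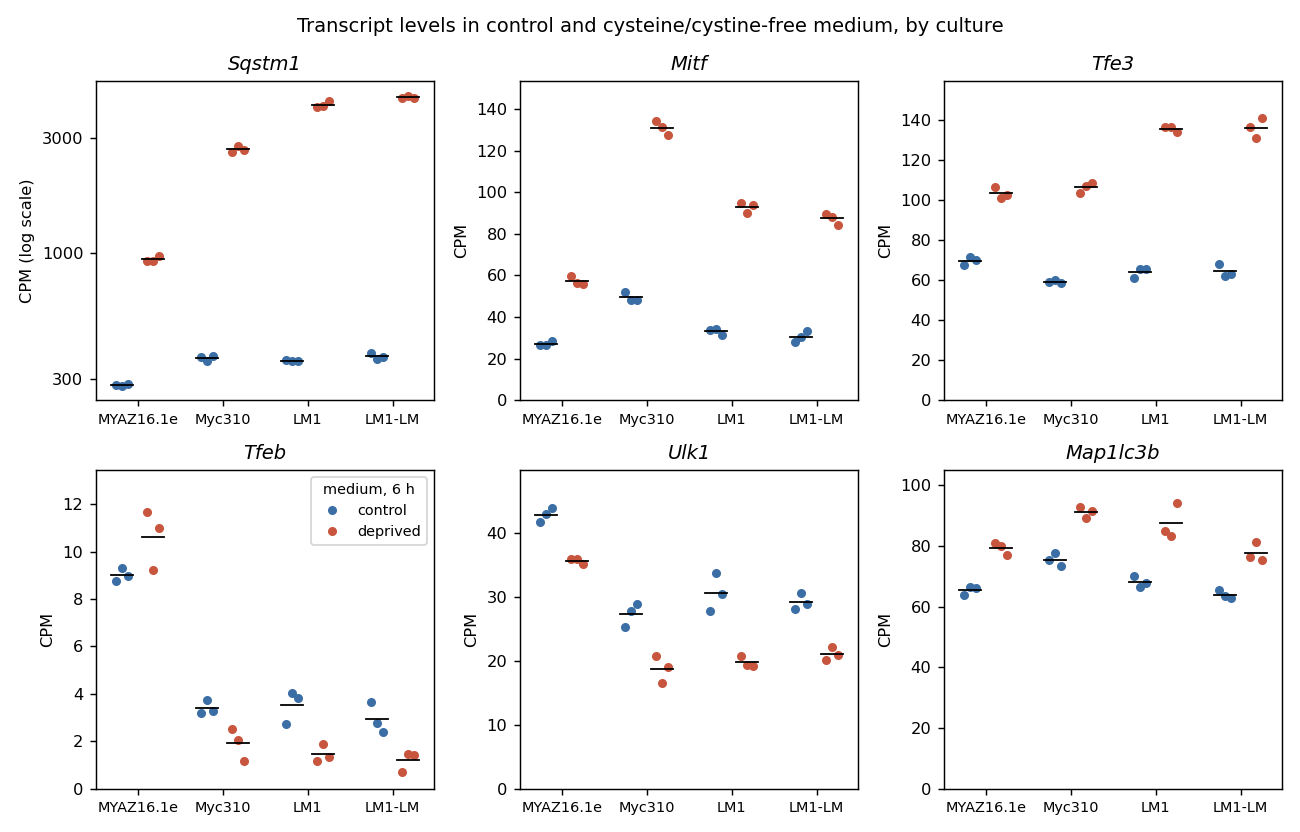
CPM of Sqstm1 (log axis), Mitf, Tfe3, Tfeb, Ulk1 and Map1lc3b in each culture of the 4 lines grown in control medium (blue) or without cysteine and cystine for 6 h (red), with 3 cultures a group and a bar at each mean. Deprived Sqstm1 means climb from 939.7 CPM in MYAZ16.1e to 4423 CPM in LM1-LM, while the Tfeb means fall to 1.2 CPM in LM1-LM and stand at 10.63 CPM in MYAZ16.1e.

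Of the transcription factor genes, Mitf (ENSMUSG00000035158, chr6:97807052-98021349, plus strand), known best for its role in pigment cells, showed the largest rise. It stood at 26.35, 26.48 and 28.51 CPM in control and 59.68, 56.12 and 55.84 CPM in deprived MYAZ16.1e. In Myc310 it stood at 51.95, 48.09 and 48.18 CPM before and 134.1, 131.1 and 127.6 CPM after deprivation. The 2 lines already differed in control medium, and deprived Myc310 held the highest Mitf level of all 15 groups. The LM1 mean rose from 33.02 ± 1.35 CPM (SD, n = 3) to 92.91 ± 2.68 CPM, and that of LM1-LM from 30.45 ± 2.8 to 87.37 ± 2.77 CPM. The log2 fold change was 1.56 ± 0.05 (SE) in LM1-LM, 1.53 ± 0.05 in LM1, 1.39 ± 0.05 in Myc310 and 1.07 ± 0.05 in MYAZ16.1e, with adjusted p of 8.64e-17 or less in each of them by edgeR. Of 5 melanocyte marker genes in the count table none exceeded 1 CPM in any group.

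Tfe3 (ENSMUSG00000000134, chrX:7762560-7775202, plus strand) rose less. In MYAZ16.1e the control cultures held 67.68, 71.32 and 69.96 CPM and the deprived cultures 106.5, 101.1 and 102.5 CPM. In Myc310 they held 58.98, 59.92 and 58.55 CPM against 103.4, 107.1 and 108.4 CPM. The deprived levels of these 2 lines overlapped, although Myc310 started lower. LM1 went from 60.99, 65.26 and 65.46 CPM to 136.1, 136.5 and 133.6 CPM, and LM1-LM from 67.71, 62.08 and 63.1 CPM to 136.4, 130.7 and 140.7 CPM. The log2 fold change was 1.12 ± 0.04 (SE) in both LM1 and LM1-LM, 0.83 ± 0.04 in Myc310 and 0.56 ± 0.04 in MYAZ16.1e, with adjusted p between 6.64e-14 and 4.29e-22 (edgeR).

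Tfeb (ENSMUSG00000023990, chr17:47737030-47792419, plus strand) was scarce and took the other direction in the Myc310 lineage. Its level in MYAZ16.1e was 8.767, 9.296 and 8.97 CPM in control and 11.68, 9.219 and 10.99 CPM in deprived cultures, and these ranges overlapped. Myc310 fell from 3.195, 3.74 and 3.271 CPM to 2.534, 2.052 and 1.187 CPM. LM1 fell from 2.732, 4.02 and 3.848 CPM to 1.162, 1.873 and 1.333 CPM, and LM1-LM from 3.659, 2.784 and 2.378 CPM to 0.7261, 1.462 and 1.41 CPM. In these 3 lines every deprived culture lay below every control culture. The deprived values rest on 27 to 56 counts a library in Myc310, 25 to 41 in LM1 and 19 to 30 in LM1-LM. By edgeR the log2 fold change was -1.29 ± 0.25 (SE; adjusted p = 3.71e-05) in LM1-LM, -1.25 ± 0.24 (3.14e-05) in LM1, -0.84 ± 0.23 (0.00176) in Myc310 and 0.23 ± 0.17 (0.255) in MYAZ16.1e. The 95% interval in MYAZ16.1e ran from -0.11 to 0.58 and so did not reach the estimate of any of the other 3 lines.

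Set per kb of annotated exon sequence, which allows levels of different genes to be compared, the family shifted from Tfeb and Tfe3 towards Mitf. In control medium Tfe3 was 4.73 times as abundant as Tfeb in MYAZ16.1e, and the ratio was 5.96 after deprivation. LM1-LM went from a ratio of 13.4 to 69.3, LM1 from 11.1 to 56.8 and Myc310 from 10.7 to 33.9. The summed level of the 3 genes rose at the same time, reaching 32.9 CPM per kb from 15 in Myc310, 29.9 from 12.9 in LM1, 29 from 12.4 in LM1-LM and 22.3 from 13.5 in MYAZ16.1e. Tfeb made up 11.8% of that sum in control MYAZ16.1e and 8.43% after deprivation, against 4.01% and 1.03% in Myc310, 4.85% and 0.861% in LM1, and 4.19% and 0.731% in LM1-LM. Mitf gained share in each, most in Myc310, where it went from 53.3% to 64.1%. The Tfe3 share was lower after deprivation in each line, although the Tfe3 level rose. Control MYAZ16.1e held a Tfe3 share of 55.7% and deprived MYAZ16.1e 50.2%, and for Myc310 the shares were 42.7% and 34.9%. LM1 had 53.7% in control medium and 48.9% when deprived, beside 56.1% and 50.7% for LM1-LM. These ratios are taken over all exons of each gene, so isoforms that use few of them would be understated.

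**Figure D2:**
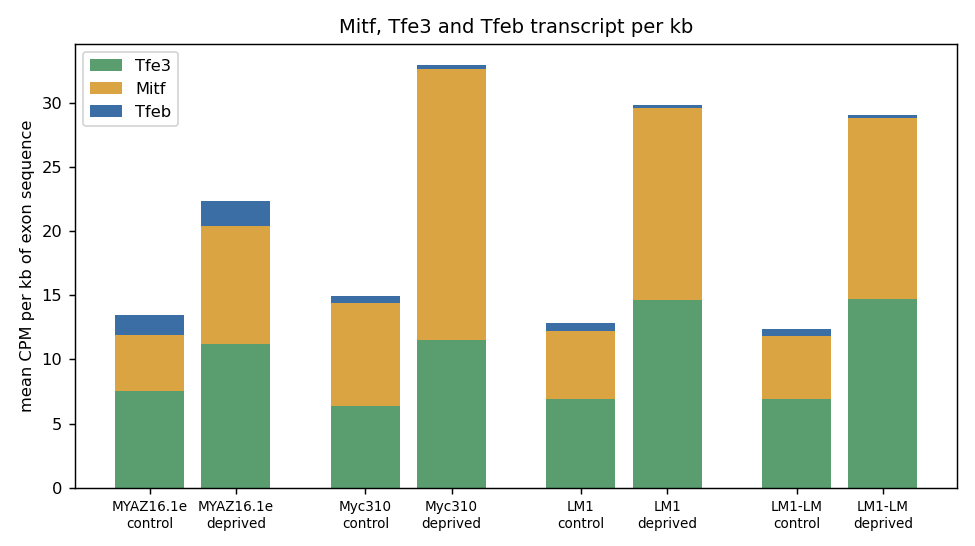
Mean CPM per kb of exon sequence of Tfe3, Mitf and Tfeb, stacked, for control and deprived cultures of the 4 lines (means of 3 cultures, no error shown). The sum rises to between 22.3 and 32.9 CPM per kb after deprivation, and the Tfeb part at the top shrinks to 0.212 CPM per kb in LM1-LM.

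Map1lc3b (ENSMUSG00000031812, chr8:121590361-121598760, plus strand), which encodes LC3B, had means of 65.43 ± 1.48 and 79.25 ± 1.96 CPM in control and deprived MYAZ16.1e and of 75.41 ± 2.22 and 91.15 ± 1.78 CPM in Myc310 (SD, n = 3). The same means were 68.23 ± 1.89 and 87.47 ± 5.75 CPM for LM1 and 63.89 ± 1.36 and 77.74 ± 3.22 CPM for LM1-LM. The fold was 1.2 in each of the first pair of lines, 1.31 in LM1 and 1.25 in LM1-LM, and the cultures did not overlap in any line. The span of Map1lc3b overlaps that of Gm20388 on the same strand (672 to 2058 counts a library) and of Zcchc14 on the opposite strand. Map1lc3b also has near-identical processed pseudogenes with at most 27 counts, so its count is less certain than the others. Gabarapl1 (ENSMUSG00000030161, chr6:129533160-129542346, plus strand), its relative in the GABARAP branch, stayed near its control level: the log2 fold changes were -0.02, 0, 0.05 and -0.03, and the 95% intervals lay between -0.13 and 0.15.

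Ulk1 (ENSMUSG00000029512, chr5:110784488-110810097, minus strand), the kinase gene that opens the pathway, fell in all 4 lines. MYAZ16.1e went from 41.78, 42.96 and 44.03 CPM to 35.96, 35.93 and 35.14 CPM. Myc310 went from 25.4, 27.85 and 28.88 CPM to 20.81, 16.51 and 19.03 CPM. Control and deprived cultures were separate in both. LM1 and LM1-LM went from means of 30.71 ± 2.93 and 29.24 ± 1.29 CPM to 19.78 ± 0.814 and 21.11 ± 0.983 CPM (SD, n = 3). The log2 fold changes were -0.27 ± 0.06, -0.55 ± 0.07, -0.60 ± 0.07 and -0.44 ± 0.07 (SE) in that order of the lines, with adjusted p of 0.000416 or less (edgeR). Wipi1 (ENSMUSG00000041895, chr11:109573331-109611967, minus strand), whose product binds phosphoinositides on the forming membrane, changed by 0.11 ± 0.04 (adjusted p = 0.029, edgeR) in MYAZ16.1e, a call that was lost without control replicate 1 or 2 or deprived replicate 2 or 3 (adjusted p up to 0.15), and by -0.02, -0.08 and -0.03 without passing the test in Myc310, LM1 and LM1-LM.

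Flcn (ENSMUSG00000032633, chr11:59791408-59810016, minus strand) rose most in the lung-derived lines: its log2 fold change was 0.42 ± 0.05 (SE; adjusted p = 1.08e-09) in LM1 and 0.48 ± 0.04 (4.72e-11) in LM1-LM, by edgeR, where its mean moved from 42.91 to 56.19 CPM and from 41.83 to 57.08 CPM. In MYAZ16.1e it was 0.12 ± 0.05 (0.0311) and in Myc310 0.11 ± 0.05 (0.0307). The MYAZ16.1e call was lost without control replicate 2, deprived replicate 1 or deprived replicate 3 (adjusted p up to 0.181), and the Myc310 call was lost without any library of that line other than deprived replicate 2 (up to 0.0888). Rragd (ENSMUSG00000028278, chr4:32983037-33022180, plus strand), the gene of a Rag GTPase, could not be tested under deprivation. It had 0 counts in all 12 libraries of LM1 and LM1-LM, which allows at most 0.154 CPM in the shallowest library, 0 to 7 counts in MYAZ16.1e and 0 or 1 in Myc310.

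In total 6 members were called higher and 1 lower in MYAZ16.1e, of 9 that could be tested, where 26.6% of all 13400 genes were called higher and 27.1% lower. In each of the other lines 5 members were called higher and 2 lower. Of all genes, 32.8% were called higher and 33.9% lower in Myc310, 35.8% and 35.3% in LM1, and 36.5% and 35.9% in LM1-LM, so that 53.7% of genes changed in MYAZ16.1e, 66.8% and 71.1% in Myc310 and LM1, and 72.4% in LM1-LM. The 5 members called higher in every line (Sqstm1, Mitf, Tfe3, Map1lc3b and Flcn) compare with 19.3% of all genes, and the single one called lower in every line (Ulk1) with 19%. The median log2 fold change of the 9 members was 0.23, 0.11, 0.39 and 0.32 in the order of the lines above, beside 0, -0.01, 0 and 0 over all genes.

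**Figure D3:**
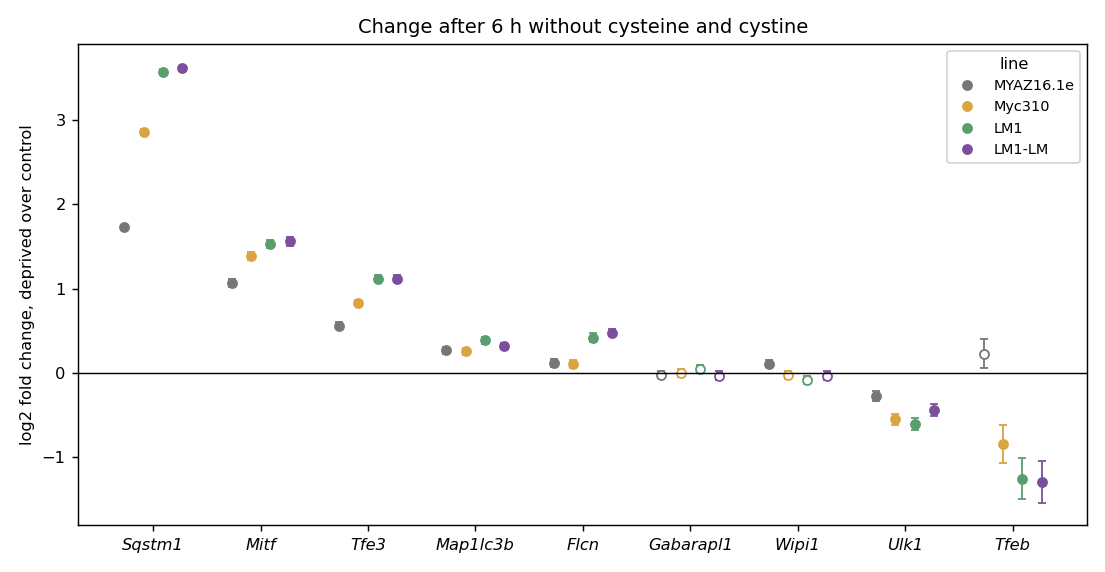
Log2 fold change of deprived over control cultures for the 9 members that could be tested, in the 4 deprived lines, with bars of 1 standard error and open symbols where the adjusted p was not under 0.05. Sqstm1, Mitf and Tfe3 step up from MYAZ16.1e to the lung-derived lines (Sqstm1 from 1.73 to 3.61), and Tfeb lies above zero in MYAZ16.1e and below it in the other lines.

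Whether lines differed in their response was tested with the line-by-medium interaction in the same edgeR fit. All interactions with MYAZ16.1e rest on the same 6 libraries of that line and are not independent of each other. For Sqstm1 the response of Myc310 exceeded that of MYAZ16.1e by 1.14 ± 0.04 log2 units (SE; adjusted p = 6.57e-20), that of LM1 by 1.84 ± 0.04 (1.47e-25) and that of LM1-LM by 1.89 ± 0.04 (7.17e-26). For Tfe3 the corresponding differences were 0.27 ± 0.05, 0.55 ± 0.05 and 0.56 ± 0.05, and for Mitf 0.33 ± 0.07, 0.46 ± 0.07 and 0.50 ± 0.07, with adjusted p of 0.000399 or less. Tfeb responded in the opposite sense, by -1.07 ± 0.28, -1.48 ± 0.29 and -1.53 ± 0.30, with adjusted p of 0.00279, 8.28e-05 and 8.04e-05. The positive differences of the receptor and of the other 2 factors and the negative difference of Tfeb held for each of the 3 lines of the Myc310 lineage.

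Flcn differed from MYAZ16.1e in LM1 by 0.30 ± 0.07 (SE) and in LM1-LM by 0.36 ± 0.07, and in Myc310 by -0.01 ± 0.07 with a 95% interval from -0.14 to 0.12. Ulk1 differed in Myc310 by -0.28 ± 0.09 (adjusted p = 0.0192, edgeR) and in LM1 by -0.33 ± 0.09 (0.00422), whereas in LM1-LM the difference of -0.16 did not pass (interval -0.35 to 0.03), except with upper-quartile scaling (-0.25, adjusted p = 0.026). The Ulk1 call in Myc310 was lost without Myc310 control replicate 3 (adjusted p = 0.0672) or deprived replicate 2 (0.113). Wipi1 differed in LM1 by -0.19 ± 0.06 (0.0112), while the differences of -0.13 in Myc310 (interval -0.26 to -0.01) and -0.14 in LM1-LM (interval -0.27 to -0.01, adjusted p = 0.0583) did not pass, though the latter did with RLE scaling (0.034), upper-quartile scaling (0.00287) and DESeq2 (0.0445). In all, 5 of 9 members differed in Myc310 (40.3% of all genes), 7 of 9 in LM1 (52.2%) and 5 of 9 in LM1-LM (54.8%).

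Within the Myc310 lineage, LM1 responded more than its parent Myc310 for Sqstm1 by 0.70 ± 0.04 log2 units (SE; adjusted p = 4.13e-14), for Tfe3 by 0.29 ± 0.05 (0.00014) and for Flcn by 0.31 ± 0.06 (0.00045), by edgeR. These were 3 of 9 members, beside 24.5% of all genes. The Mitf difference of 0.14 (interval 0 to 0.28) and the Tfeb difference of -0.41 (interval -1.09 to 0.28) did not pass. Between LM1-LM and LM1, the last passage through the lung, edgeR called 0 of 9 members, 0 at an unadjusted p under 0.05, and DESeq2 called 0, where 0.769% of all genes were called. The intervals of that difference were narrow for Sqstm1 (-0.03 to 0.12) and Tfe3 (-0.11 to 0.11) and wide for Tfeb (-0.76 to 0.67).

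The lines already differed before deprivation. All 10 members varied among the 11 lines in control medium (edgeR, adjusted p of 3.11e-11 or less), as did 92.8% of all genes. Tfeb was highest in MYAZ12.3i-NDI1 (10.31 ± 0.574 CPM, SD, n = 3), MYAZ12.3i (9.653 ± 1.06), MYAZ16.1e (9.011 ± 0.267) and MYAZ6.6g (8.411 ± 0.517), whose cultures overlapped from neighbour to neighbour. Then followed LM3 (6.429 ± 0.633), LM3-LM (5.28 ± 0.325), LM2 (4.337 ± 0.342), LM2-LM (4.07 ± 0.466), LM1 (3.533 ± 0.699), Myc310 (3.402 ± 0.295) and LM1-LM (2.94 ± 0.654). A gap separated MYAZ6.6g from LM3, LM3 from LM3-LM, and LM3-LM from LM2, and the neighbours from LM2 down to LM1-LM overlapped.

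Mitf ran from Myc310 (49.41 ± 2.21 CPM, SD, n = 3), LM2-LM (48.26 ± 2.99) and LM3-LM (45.65 ± 2.83) through LM2 (43.01 ± 1.76) and LM3 (42.97 ± 1.37) to LM1 (33.02 ± 1.35) and LM1-LM (30.45 ± 2.8), with the 4 MYAZ-derived lines at 21.75 to 27.11 CPM. Neighbours overlapped except between LM3 and LM1 and between MYAZ6.6g and MYAZ12.3i. Sqstm1 was 356.1 to 426 CPM in Myc310 and the lines derived from it and 229.8 to 283 CPM in the MYAZ lines. Tfe3 did not follow the subtypes: MYAZ16.1e, at 69.65 ± 1.84 CPM, lay beside LM2, at 69.98 ± 2.24 CPM, while MYAZ6.6g held 45.9 ± 2.22 and MYAZ12.3i 34.16 ± 1.91 CPM.

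**Figure D4:**
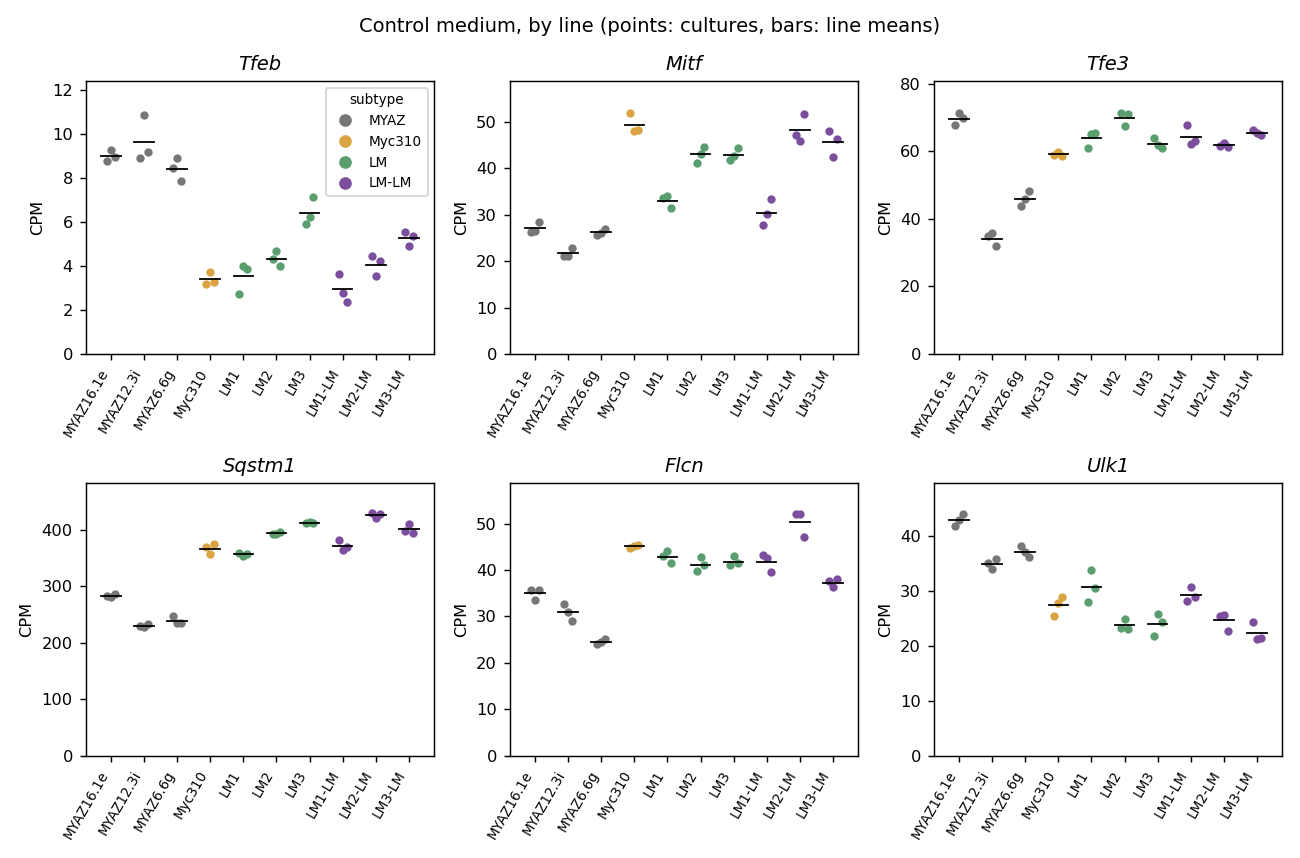
CPM of Tfeb, Mitf, Tfe3, Sqstm1, Flcn and Ulk1 in control medium for 10 lines, coloured by subtype, with 3 cultures a line as points and a bar at the mean of each. MYAZ lines lie highest for Tfeb (8.411 to 9.653 CPM) and Ulk1 and lowest for Mitf, Sqstm1 and Flcn, and Tfe3 in MYAZ16.1e (69.65 CPM) lies among the Myc310-derived lines.

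Against the MYAZ subtype, Tfeb was lower, with log2 differences of -1.15 ± 0.16 (SE; adjusted p = 2.84e-07, edgeR over libraries) in LM-LM, -0.91 ± 0.16 (1.1e-05) in LM and -1.41 ± 0.24 (1.82e-05) in Myc310. Taking Myc310, LM and LM-LM in turn, Mitf was higher by 0.98 ± 0.14, 0.67 ± 0.11 and 0.71 ± 0.11, Sqstm1 by 0.54 ± 0.07, 0.63 ± 0.05 and 0.66 ± 0.05, and Flcn by 0.58 ± 0.11, 0.48 ± 0.08 and 0.50 ± 0.08. Ulk1 was lower, at -0.49 ± 0.11, -0.55 ± 0.08 and -0.61 ± 0.08. These 5 genes passed in all 3 comparisons, which share the MYAZ libraries. Of all genes, 50.9%, 60.8% and 62.8% were called in Myc310, LM and LM-LM, and the share called in all 3 was not counted. Tfeb in LM was not called with counts summed per line (adjusted p = 0.0533), nor Ulk1 in Myc310 with a random effect for line (0.0695). Tfe3 was 0.39 ± 0.12 higher in LM (adjusted p = 0.00446) and 0.34 ± 0.12 in LM-LM (0.0124), a difference of 0.24 in Myc310 did not pass, and single lines decided these calls. Without MYAZ12.3i the LM and LM-LM differences were 0.18 (0.0717) and 0.13 (0.203), the LM-LM difference was also not called without MYAZ6.6g (0.28, adjusted p = 0.077) or without replicate 1 of each line (0.31, 0.0861), and without MYAZ16.1e the Myc310 difference was called at 0.56 (6.59e-06). Map1lc3b was lower in LM-LM, at -0.24 ± 0.07 (0.00658), but not without replicate 2 of each line (0.0668), without LM1-LM (0.0667), without MYAZ12.3i (0.0998) or without MYAZ6.6g (0.0638), nor with counts summed per line (0.304) or a random effect for line (0.0699). Cell type markers differed in the same comparisons. With Myc310 first and LM-LM last, 4, 3 and 4 of 5 fibroblast markers tested were called lower and 0, 1 and 1 higher (median log2 differences of -3.66, -2.61 and -2.73). Of these markers Col3a1 had line means of 0 to 10.05 CPM in MYAZ, 12.94 to 108.7 CPM in LM and 30.98 to 199 CPM in LM-LM. Of 4 alveolar markers 4, 3 and 3 were called lower and 0 higher (-3.03, -2.42 and -2.87). Both leukocyte markers tested were called higher each time (2.33, 2.62 and 2.67). Their part in the differences of the members was not tested.

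Cultures of a line are not separate tumours, and so the subtypes were also compared over the means of their 3 lines. The LM and LM-LM lines go back to the single line Myc310 and so are not independent of each other, which limits this test to a comparison of these lines. An exact two-sided permutation test of 3 against 3 lines cannot go below p = 0.1. Tfeb, Mitf, Sqstm1, Ulk1 and Flcn reached that value in both LM and LM-LM against MYAZ, with line means that did not overlap, as was so for 43.5% and 43.6% of all genes. For Tfe3 the line means overlapped, with exact permutation p of 0.3 and 0.4. In the edgeR comparison 5 of 10 members were called in Myc310 (50.9% of all genes), 6 in LM (60.8%) and 7 in LM-LM (62.8%).

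Rragd was scarce in control medium. LM2 held 27 to 42 counts a library, MYAZ12.3i 17 to 26, MYAZ12.3i-NDI1 12 to 25 and LM3 6 to 12, and no other line exceeded 7. It was not called between subtypes with all lines, but was in LM without MYAZ12.3i (a log2 difference of 3.15, adjusted p = 0.01) and in LM-LM without MYAZ6.6g (-2.24, adjusted p = 0.0428), by edgeR. Against MYAZ12.3i, the MYAZ12.3i-NDI1 cultures had Tfe3 higher by 0.20 ± 0.05 log2 units (SE; adjusted p = 0.0181, edgeR), Mitf higher by 0.28 ± 0.06 (0.00486), Sqstm1 higher by 0.09 ± 0.03 (0.0415) and Map1lc3b lower, at -0.13 ± 0.04 (0.0439). These were 4 of 10 members, beside 17.4% of all genes. The Mitf levels were 21.19, 21.18 and 22.87 CPM in MYAZ12.3i and 26.08, 25.92 and 27.67 CPM in MYAZ12.3i-NDI1, with no overlap. Leaving out 1 library lowered the count to as few as 1 member, with Mitf still called, so the Tfe3, Sqstm1 and Map1lc3b calls rest on single libraries, namely MYAZ12.3i control replicate 3 or MYAZ12.3i-NDI1 replicate 2 for Tfe3 (adjusted p = 0.104 and 0.0839), any library other than MYAZ12.3i-NDI1 replicate 3 for Sqstm1, and MYAZ12.3i replicate 1 or 3 or MYAZ12.3i-NDI1 replicate 2 or 3 for Map1lc3b.

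The rest of the pathway was read from 7 lists of 96 genes, none of them members, of which 93 could be tested under deprivation. In all 4 lines 24 were called higher and 11 lower, against 19.3% and 19% of all genes, and with upper-quartile scaling 22 and 11. The initiation list, which holds the partners of ULK1 and of the class III lipid kinase, had 7 of 12 genes higher in all 4 lines and 0 lower in all 4, and 6 and 0 with upper-quartile scaling. Line by line 8, 7, 8 and 7 were called higher and 0, 4, 4 and 3 lower in MYAZ16.1e and Myc310, then LM1 and LM1-LM, where 26.6%, 32.8%, 35.8% and 36.5% of all genes were called higher and 27.1%, 33.9%, 35.3% and 35.9% lower. These shares are the background of the per-line counts of the other lists too. Rb1cc1, the scaffold of the ULK1 complex, rose by 0.42 ± 0.04, 0.46 ± 0.04, 0.63 ± 0.04 and 0.68 ± 0.04 log2 units (SE) in the same order of lines, the order kept for the values of each gene of the lists, and Nrbf2, a subunit of the lipid kinase complex, by 0.40, 0.47, 0.91 and 0.91. Ulk1 itself thus took the other direction from its scaffold gene.

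Of the phagophore membrane list 3 of 9 rose in all 4 lines and 0 fell in all 4, with 5, 5, 6 and 7 called higher and 1, 2, 1 and 1 lower line by line. Wipi2 rose by 0.80, 1.12, 1.2 and 1.25 (SE 0.03 in each) and Wdr45, another WIPI family gene, by 0.89, 0.84, 1.29 and 1.38. In the ATG8 family and conjugation list 2 of 13 rose throughout: Atg12, a ubiquitin-like protein gene, by 0.50, 1.03, 1.24 and 1.24, and Atg10, the enzyme that conjugates its product, by 0.59, 0.75, 0.52 and 0.64 with SE of 0.19 to 0.25. In that list 0 fell in all 4 lines, and line by line 4, 6, 8 and 10 were called higher and 2, 3, 2 and 3 lower.

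The receptor list had 4 of 12 genes higher and 3 lower in all 4 lines, and with upper-quartile scaling 4 higher and 2 lower. Line by line 6, 4, 5 and 6 were called higher and 3, 5, 4 and 4 lower. Optn, the optineurin gene, rose by 0.63 ± 0.09, 1.60 ± 0.10, 1.87 ± 0.10 and 1.95 ± 0.10 log2 units (SE), and Nbr1, whose product resembles p62, by 0.43, 0.60, 0.97 and 1.05. Ncoa4, the receptor for ferritin, was lower in each line, with log2 fold changes of -0.17, -0.45, -0.32 and -0.27 (SE 0.03), and so was Fundc1, a mitochondrial receptor, with -0.19, -0.21, -0.18 and -0.13, a change near the threshold. The fusion list had 2 of 10 higher and 3 lower, and with upper-quartile scaling 1 higher and 3 lower. Line by line 3, 4, 4 and 4 genes were called higher and 4, 4, 5 and 5 lower in that list. Its extremes were Epg5, a tether gene, at 1.18, 1.54, 2.08 and 2.17, and Stx17, the SNARE of the autophagosome, at -0.30, -0.60, -0.64 and -0.76. Rab7 lay at -0.29, -0.49, -0.49 and -0.43, and Vps39 at 0.36, 0.16, 0.18 and 0.36, where its call in LM1 was lost with upper-quartile scaling (0.11, adjusted p = 0.0732, edgeR).

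**Figure D5:**
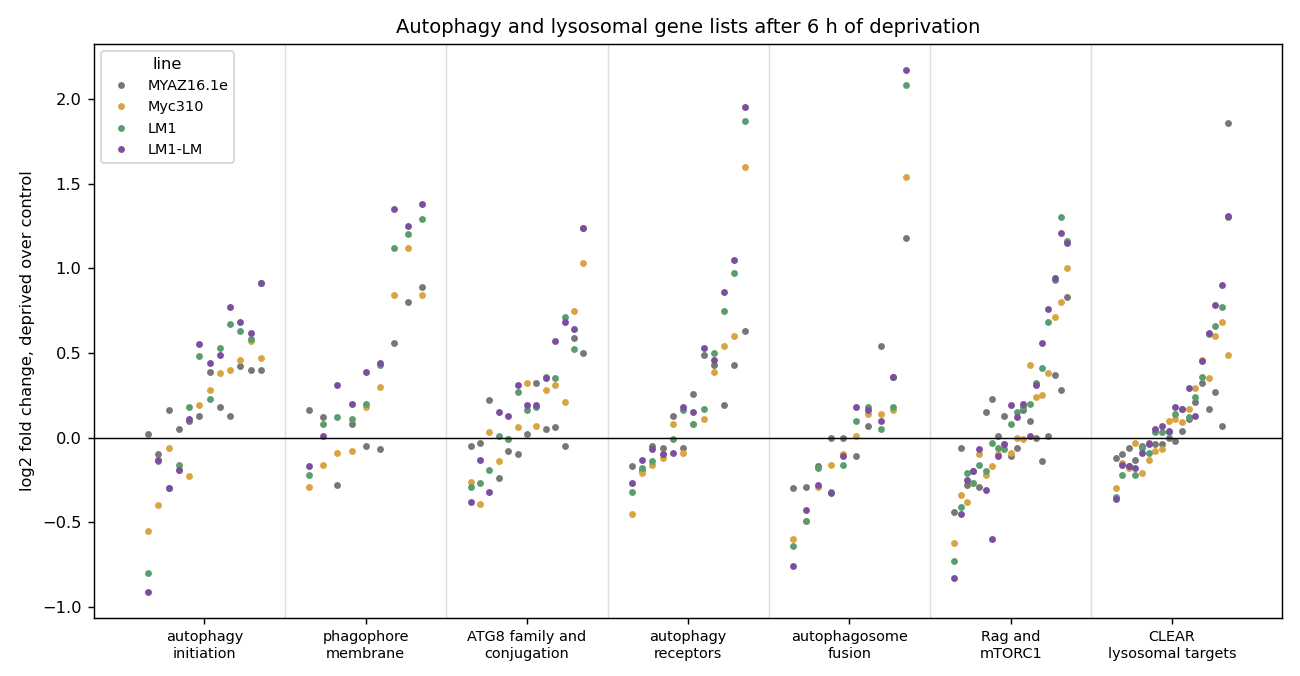
Log2 fold change of deprived over control cultures for 93 tested genes in 7 lists, with 1 point for each gene and line, genes ordered within a list by their mean and coloured by line. In the autophagy initiation list 7 of 12 genes rise in all 4 lines, and the highest points belong to Epg5 of the fusion list (2.17 in LM1-LM).

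The Rag and mTORC1 list had 3 of 19 tested genes higher and 3 lower in all 4 lines, and with upper-quartile scaling 3 higher and 4 lower. Line by line 6, 7, 8 and 8 were called higher and 4, 6, 6 and 6 lower. Rheb, the GTPase that switches mTORC1 on, rose by 0.83, 1.00, 1.16 and 1.15 (SE 0.04), and Fnip1, the partner of folliculin, by 0.28, 0.80, 1.30 and 1.21 (SE 0.06). Depdc5, a brake on the Rag GTPases, was lower, at -0.44, -0.62, -0.73 and -0.83, and so was Lamtor5, part of their lysosomal anchor, at -0.28, -0.38, -0.21 and -0.25. In the lysosomal list, made of genes known as MiT/TFE targets, 3 of 18 tested genes were higher and 2 lower in all 4 lines, beside 19.3% and 19% of all genes. Line by line 4 were called higher and 2 lower in MYAZ16.1e, 9 and 6 in Myc310, 7 and 4 in LM1, and 8 and 2 in LM1-LM, against the shares of all genes given with the initiation list. Gla, a lysosomal galactosidase gene, rose by 0.27, 0.60, 0.66 and 0.78, and Atp6v1h, a proton pump subunit gene, by 0.17, 0.35, 0.61 and 0.62. Lamp1, a lysosomal membrane protein gene, was lower, at -0.10, -0.15, -0.22 and -0.16. The median of that list was -0.01, 0.10, 0.08 and 0.10, beside medians of 0, -0.01, 0 and 0 over all genes.

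In control medium 50.9%, 60.8% and 62.8% of all genes were called in Myc310, LM and LM-LM against MYAZ. Of 18 lysosomal genes tested, 1 was higher and 8 lower in Myc310 than in MYAZ, 4 and 9 in LM, and 4 and 8 in LM-LM, with medians of -0.29, -0.12 and -0.14. The fusion list had 6 of 10 genes higher and 2 lower in Myc310, 7 and 2 in LM, and 6 and 2 in LM-LM, with medians of 0.42, 0.34 and 0.32. These medians compare with -0.02, 0 and -0.01 over all genes.

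As a description of which genes followed the members over the 15 groups, the Pearson correlation of mean log2 CPM was taken with every gene of a mean of at least 3 on that scale. The groups include deprived ones and related lines, so the points are not independent. Sqstm1 was followed most closely by Wars1 (0.995), a tryptophanyl-tRNA synthetase gene, and Hmox1 (0.994), the haem oxygenase 1 gene. Tfe3 was followed by Nprl3 (0.986) and Tbl1x (0.98), Mitf by St7l (0.965) and Epha2 (0.963), and Tfeb by Tcf20 (0.981) and Pla2g6 (0.977). Ulk1 was followed by Rtf1 (0.979) and Rtel1 (0.967), Flcn by Lmtk2 (0.957) and Uqcrc2 (0.945), Gabarapl1 by Pla2g7 (0.934) and Epas1 (0.922), and Map1lc3b by Glis3 (0.908) and Trps1 (0.883). Wipi1 was followed by Nudt5 (0.877) and Rapgef1 (0.871), and Rragd, whose values are low, by Alas1 (0.84) and Lrp6 (0.804). Among the members themselves Sqstm1 went with Tfe3 (0.91) and Mitf (0.91) and against Tfeb (-0.78).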

How the data were processed

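RNA of 45 cultures was sequenced from directional poly(A) libraries. Per the study's methods, the authors aligned reads with STAR and quantified genes with RSEM in an nf-core pipeline, on GRCm38 per the labels, and deposited whole-number counts per gene for 28454 genes. The annotation release and the strand setting are not given in the sources used here. Counts were tested with edgeR 4.0.16 (quasi-likelihood, TMM scaling, filterByExpr) in R 4.3.3: 24 libraries for deprivation and its interaction with line (13400 genes), 30 control libraries for subtypes (13795 genes), 33 for the 11 lines (13899 genes) and 6 for MYAZ12.3i-NDI1 (12841 genes), each with Benjamini-Hochberg adjustment over all genes tested and a threshold of 0.05. The scripts were tested on simulated data. CPM are TMM-scaled, and log2 CPM used a prior count of 2. Line means were compared by an exact two-sided permutation test on log2 of CPM + 0.1.

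Members and lists were chosen with earlier results of these data known. Genes named beside the members were up to 2 highest and 2 lowest in each list, by mean log2 fold change, among those called in the same direction in all 4 lines, and the 2 genes most correlated with each member. One gene that this rule names is not reported here. The markers named as checks of cell type are the exception. Gene positions and exons came from GENCODE M21, in which 28407 of 28454 identifiers were found, and upstream sequences from RefSeq (GRCm38.p6). With 19517859 to 29019988 counts a library, depth limited the precision most for Tfeb and Rragd. A count of 0 was read as at most 3 counts, which covers counting error only. No 2 libraries of a group were near-identical (chi-square per gene of 2.26 or more). Alternatives were RLE and upper-quartile scaling, other count filters, DESeq2 1.42.0, a replicate block, limma 3.58.1 voom with a random effect for line, counts summed per line, fits to only the lines compared, and leaving out libraries, replicate numbers or lines.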

Additional observations from a re-analysis of the deposited data

Results flagged for a closer look

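The deprivation response of members differed from that of MYAZ16.1e by the interaction term of edgeR's fit, in log2 units, in comparisons where 40.3% (Myc310), 52.2% (LM1) and 54.8% (LM1-LM) of all genes differed. In Myc310 the differences were 0.27 for Tfe3, -1.07 for Tfeb, 0.33 for Mitf, 1.14 for Sqstm1 and -0.28 for Ulk1. In LM1 they were 0.55 for Tfe3, -1.48 for Tfeb, 0.46 for Mitf, 1.84 for Sqstm1, -0.33 for Ulk1, -0.19 for Wipi1 and 0.30 for Flcn. In LM1-LM they were 0.56 for Tfe3, -1.53 for Tfeb, 0.50 for Mitf, 1.89 for Sqstm1 and 0.36 for Flcn. Between LM1 and its parent Myc310, where 24.5% of all genes differed, they were 0.29 for Tfe3, 0.70 for Sqstm1 and 0.31 for Flcn.

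Among the 9 control libraries of the MYAZ subtype, 1 library stood apart for Tfeb, at 10.87 CPM in MYAZ12.3i replicate 2. This was 1 of 30 gene-and-subtype groups examined. A chance rate of about 1 in 20 would hold for independent libraries, whereas these are 3 cultures of each of 3 lines.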

How the results depend on the processing

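For deprivation, 447 of 468 values of single members kept their side of the threshold, 18 lost the call and 3 gained one. None that was called in either fit reversed its direction, but some small uncalled values changed sign. For the interaction 841 of 855 kept their side of the threshold, for subtypes in control medium 439 of 467 and for MYAZ12.3i-NDI1 105 of 120. The calls lost under deprivation were those of Flcn and Wipi1 in MYAZ16.1e and of Flcn in Myc310, for which upper-quartile scaling gave 0.08 (adjusted p = 0.117) and DESeq2 gave 0.12 in MYAZ16.1e (0.062). Scaling moved the median of all genes by at most 0.083. With counts summed per line Tfe3 no longer passed (adjusted p = 0.204 in LM and 0.252 in LM-LM), nor did Tfeb in LM (0.0533). The random block for line ended the calls of Ulk1 in Myc310 (0.0695) and Map1lc3b in LM-LM (0.0699) against MYAZ, the latter also lost with counts summed per line (0.304). Upper-quartile scaling added calls under deprivation for Gabarapl1 in LM1-LM (-0.12, 0.0201) and Wipi1 in LM1 (-0.16) and LM1-LM (-0.11). The interaction of Wipi1 in LM1-LM passed with RLE or upper-quartile scaling, the filter of 10 counts, DESeq2 and only the lines compared, and without LM1-LM deprived replicate 2 or MYAZ16.1e deprived replicate 1. That of Wipi1 in Myc310 passed with upper-quartile scaling (0.0334) or without Myc310 control replicate 3, that of Ulk1 in LM1-LM with upper-quartile scaling (0.026), and that of Map1lc3b in LM1 without LM1 deprived replicate 2. The cause of these changes was not tested.

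Same-numbered cultures deviated together with correlations of -0.05 to 0.05, so the numbers do not pair the cultures. With the replicate number as a block, 2 rather than 4 members were called for MYAZ12.3i-NDI1. Leaving out 1 library at a time gave 1 to 3 members there, and 1243 to 2485 genes were called across all alternatives, against 2236. For LM1-LM against LM1 the alternatives called 48 to 218 genes, against 103. For subtypes, counts summed per line called 3788 genes in LM and 4226 in LM-LM against 8385 and 8661, and the random block for line called 4759, 5054 and, in Myc310, 2819 against 7022. The depth limits Tfeb, at 19 to 56 counts in deprived libraries of the Myc310 lineage, and Rragd.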
